A study of Mus musculus with 10 samples.

Results

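Genes of bone morphogenetic protein (BMP) and activin signalling were compared between CD90- and CD90+ myofibroblastic cancer-associated fibroblasts (myCAFs) of mouse pancreatic ductal adenocarcinoma. The set holds 10 named genes of the 48471 genes with a matched transcript: the ligands Bmp2, Bmp4, Inhba and Inhbb, the receptors Bmpr1a and Bmpr2, the secreted antagonists Grem1, Fst and Fstl1, and the pseudoreceptor Bambi. They were taken by name, with earlier results of these data known. All 10 had enough counts to be tested.

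The tested cells were CD90- myCAFs, set against CD90+ myCAFs from the same tumours. CD90, the product of Thy1, is a surface protein used here to divide the sorted fibroblasts. In both groups the tumours had grown in male C57BL/6J mice after orthotopic transplantation of KPC T-LOH pancreatic cancer organoids, so that all libraries share this tumour model. Sources used here state neither the ages of the mice nor which other surface markers defined a myCAF. Each group had 5 libraries, made from 5 tumour pools of 4, 1, 2, 3 and 1 animals (pools 1 to 5), and both fractions of a pool carry the same animal numbers. The titles name 11 animals, whereas the design text counts 5 mice, and n is given as pools. Total estimated counts, in M (counts divided by 1e6), ran from 33.3 to 47.7 M in CD90- libraries and from 11.7 to 38.2 M in CD90+ libraries. Counts on nuclear protein-coding genes were lowest in the CD90- library of pool 4, at 3.71 M, and in the CD90+ library of pool 5, at 4.57 M.

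BMPs and activins are dimeric ligands of the TGF-beta superfamily. They bind complexes of type I and type II serine/threonine kinase receptors, which phosphorylate SMAD1, SMAD5 and SMAD9 for BMPs and SMAD2 and SMAD3 for activins. Antagonists act outside the cell: gremlin holds BMP2 and BMP4, and follistatin holds activins, away from their receptors. In the pancreas, activated stellate cells and fibroblasts are known sources of activin A and gremlin.

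The sort was visible in Thy1, measured in CPM (counts scaled to library size times a TMM factor for library composition). Thy1 was at 16.0, 10.2, 8.06, 5.98 and 2.07 CPM in CD90- libraries of pools 1 to 5, and at 97.3, 102, 39.2, 89.8 and 117 CPM in the CD90+ libraries. Fibroblast markers had counts in both groups, though Fap had only 1 count in the CD90- library of pool 5. The summed level of the 10 markers ran from 4484 to 22002 CPM in CD90- and from 33955 to 55474 CPM in CD90+ libraries. Of the 10, 8 fell. The 6 myofibroblast markers summed to between 177 and 381 CPM in CD90- and between 712 and 1363 CPM in CD90+ libraries, and all 6 fell. The 11 cancer epithelial markers summed to between 720 and 3037 CPM in CD90- and between 180.1 and 1638 CPM in CD90+ libraries, higher in 5 of 5 pools, and 7 rose. The 6 endothelial markers summed to between 35.5 and 147 CPM in CD90- and between 25.8 and 36.5 CPM in CD90+ libraries, with the highest value in pool 2, and 2 rose. Among them Kdr leaned the other way (log2 fold -0.70) and did not pass. None of these 33 markers was at 0 in all libraries. The 6 pericyte markers summed to between 7.02 and 115 CPM in CD90- and between 45.1 and 77.1 CPM in CD90+ libraries. The 7 macrophage markers summed to between 9.79 and 33.7 CPM in CD90- and between 7.08 and 12.9 CPM in CD90+ libraries. Of either list 0 were called. Among pericyte markers Rgs5 leaned higher (log2 fold 3.14), and Cspg4, Kcnj8, Notch3 and Abcc9 leaned lower (-2.18 to -1.21). The 5 mesothelial markers summed to between 154 and 266 CPM in CD90- and between 185 and 298 CPM in CD90+ libraries, and 1 (Msln, log2 fold 1.40) rose. The other 4 (Upk3b, Wt1, Upk1b and Lrrn4) had log2 folds from -2.04 to -1.32 and did not pass. The 5 lymphocyte markers reached at most 6.41 CPM, with Nkg7 at 0 in all libraries and 0 called, and the 4 acinar markers at most 23.2 CPM, with 1 higher. Mitochondrial rRNA took from 35.6% to 84.4% of gene-assigned counts in CD90- and from 10.5% to 44.8% in CD90+ libraries, higher in 5 of 5 pools. In bulk samples such as these, fewer cells of a type and less RNA per cell cannot be told apart. The part of these differences in the results on BMP and activin genes was not tested.

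Of the 10 genes, 1 rose (Bmp2) and 4 fell (Inhbb, Grem1, Fst and Fstl1) in CD90- cells at an adjusted p under 0.05, where 12.9% of all 15378 genes tested were called, 5.83% as higher and 7.05% as lower. The median log2 fold (CD90- over CD90+) of the 10 was -1.12, against 0.04 over all genes tested. All 3 secreted antagonists fell, and neither receptor passed the test. CPM ranges of the 2 groups did not overlap for 1 of the 10, Fstl1, against 7.93% of all genes tested. Without pool 1, 2 of the 10 were called, both lower (Fst and Fstl1), where 675 of all 15447 genes tested were called. The count was 3 without pools 4 and 5 (541 of 16134 genes) and 2 without the block for the pool (965 of 15378). It was 0 with the mitochondrial rRNA share added to the model, where 0 of all 15378 genes tested were called. That share was higher in the CD90- library of every pool, so this model cannot separate it well from the group. SEs grew there, for Fstl1 from 0.31 to 1.02. A call lost with this covariate thus says little about a single gene.

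Promoter sequence is shown for Grem1 and Inhbb, which were both called lower, and for Inhba, which encodes the other activin chain. Each is the 250 bases before the RefSeq gene start on the gene's own strand, in build GRCm38.p6. Capitals mark motif matches. The Grem1 window lies on the minus strand at chr2:113758649-113758898, the Inhba window on the plus strand at chr13:16011601-16011850, and the Inhbb window on the minus strand at chr1:119422249-119422498.
Grem1: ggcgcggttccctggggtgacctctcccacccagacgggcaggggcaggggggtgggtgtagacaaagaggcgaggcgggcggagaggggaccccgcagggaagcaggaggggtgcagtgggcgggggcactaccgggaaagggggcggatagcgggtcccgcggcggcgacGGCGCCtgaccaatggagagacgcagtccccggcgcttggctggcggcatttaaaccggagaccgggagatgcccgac
Inhba: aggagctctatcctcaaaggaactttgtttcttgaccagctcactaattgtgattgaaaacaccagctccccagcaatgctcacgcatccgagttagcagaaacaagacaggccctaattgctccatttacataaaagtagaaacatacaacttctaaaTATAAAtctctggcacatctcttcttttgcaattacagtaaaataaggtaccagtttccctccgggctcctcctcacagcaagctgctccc
Inhbb: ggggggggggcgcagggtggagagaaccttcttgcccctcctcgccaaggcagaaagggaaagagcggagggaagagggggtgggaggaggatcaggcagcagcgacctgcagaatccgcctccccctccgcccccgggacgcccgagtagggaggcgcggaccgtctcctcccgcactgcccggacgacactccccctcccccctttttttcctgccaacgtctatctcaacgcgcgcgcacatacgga

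RefSeq windows were at hand for 7 of the 10 genes, and both strands were searched for 5 short motifs. The GC-rich SMAD element GGCGCC was found in Grem1, from 78 to 73 bases before the start, and in Bmpr1a and Bmpr2, and it occurs in 9.65% of 32536 distinct windows of the same length. The TATA box TATAAA was found in Inhba only, from 91 to 86 bases before the start, and occurs in 12.3% of windows. The GLI site GACCACCCA (0.218% of windows), the TEAD site GGAATG (12.6%) and the AP-1 site TGACTCA (4.45%) had no match in the 7 windows. The activin genes differed in base composition, with 43.2% G and C for Inhba and 68.0% for Inhbb, against a median of 52.4% over all windows, and Grem1 had 72.0%. A match describes these letters and shows no binding.

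**Figure D1:**
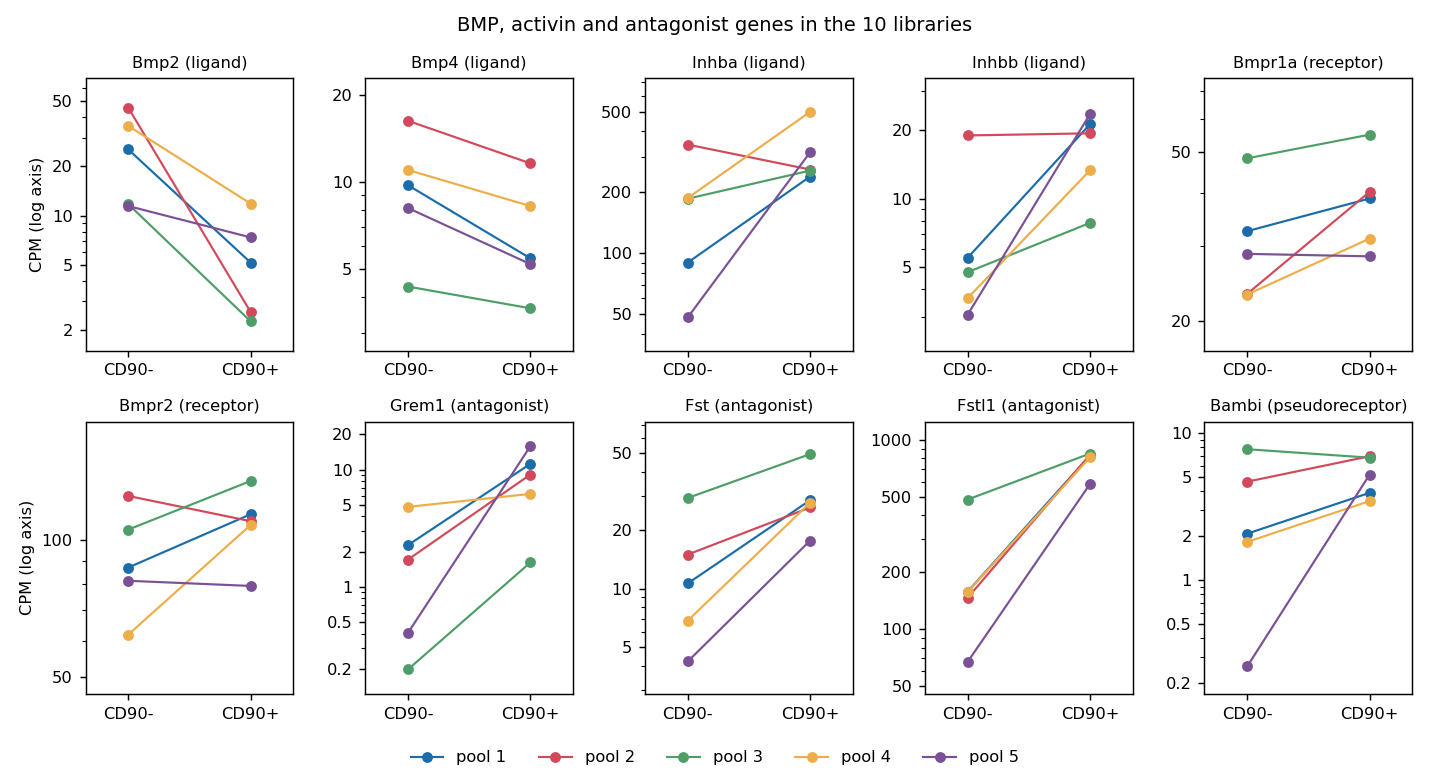
CPM on a log axis for the 10 genes in CD90- (left) and CD90+ (right) libraries, with 1 line for each of the 5 pools. Bmp2 and Bmp4 lines run down from CD90- to CD90+ in 5 of 5 pools, and those of Inhbb, Grem1, Fst and Fstl1 run up in 5 of 5.

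Among the ligands, the BMP genes were higher in CD90- libraries of 5 of 5 pools, but only Bmp2 passed the test. Bmp2 encodes a BMP known for inducing bone and, in the embryo, for patterning many tissues. Its level was 25.4, 45.6, 11.8, 35.4 and 11.5 CPM in CD90- libraries of pools 1 to 5, and 5.17, 2.58, 2.26, 11.8 and 7.37 CPM in CD90+ libraries. The groups met at their edges, since the lowest CD90- value, in pool 5, lay just under the highest CD90+ value, in pool 4. Bmp2 averaged 25.9 ± 14.9 CPM in CD90- and 5.85 ± 3.95 CPM in CD90+ cells (SD, n = 5), a 4.56-fold rise (log2 fold 2.19, SE 0.46, adjusted p = 0.0169). The log2 ratio by pool was 2.28, 4.11, 2.35, 1.57 and 0.63. It was largest in pool 2, whose CD90- library also had the highest endothelial marker sum, at 147 CPM against 35.5 to 58.4 CPM in the other CD90- libraries. The pericyte marker sum was highest in the same library, at 115 CPM against 7.02 to 28.5 CPM. Of the pericyte markers in pool 2, Rgs5, Notch3 and Cspg4 had log2 ratios of 8.43, 1.11 and 0.01. Kcnj8 and Abcc9 were lower there, at -2.73 and -0.75. Epithelial markers were higher beside Bmp2, with a median log2 ratio of 3.94, 0.80, 2.94, 2.37 and 0.99 in pools 1 to 5. In pool 2 Epcam, Cldn4, Cldn7 and Esrp1 were lower, at log2 ratios of -1.24, -1.71, -1.72 and -0.23, and the rest of the list was higher. Cldn4 was also lower in pool 5 (-0.93). The part of these markers in the rise was not tested. The call was lost without pool 1 (adjusted p = 0.0771) and with the mitochondrial covariate (adjusted p = 0.795), at log2 folds of 2.16 and 1.75.

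Bmp4, the closest relative of Bmp2 and a ligand of the same receptors, had 9.74, 16.3, 4.36, 11 and 8.13 CPM in CD90- libraries and 5.45, 11.6, 3.66, 8.26 and 5.21 CPM in CD90+ libraries. The groups overlapped widely, and in each group pool 2 was highest and pool 3 lowest. Its log2 fold was 0.52 (SE 0.25, adjusted p = 0.22), below the threshold although every pool leaned the same way, by 0.25 to 0.83. Per kilobase of transcript, the ratio of Bmp2 to Bmp4 was 0.889, 0.944, 0.928, 1.13 and 0.516 in CD90- libraries and 0.332, 0.074, 0.225, 0.502 and 0.419 in CD90+ libraries. Bmp2 thus stood near the level of Bmp4 in 4 of 5 CD90- libraries and below it in all CD90+ libraries.

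Activin chain genes ran the other way. Inhba encodes the beta A chain, which forms activin A as a dimer. It had 90.1, 344, 186, 188 and 48.4 CPM in CD90- libraries and 239, 259, 256, 499 and 315 CPM in CD90+ libraries. CD90- values were lower in 4 of 5 pools, and pool 2 was the exception. The CD90- library of pool 2, with the highest endothelial and pericyte marker sums, was the highest CD90- library for Inhba and Inhbb. The part of these markers was not tested. The Inhba log2 fold of -1.11 (SE 0.40, adjusted p = 0.119) did not pass. The adjusted p was 0.037 without pool 2, at a log2 fold of -1.49, and 0.00673 in DESeq2, and edgeR over all genes with any count gave 2.26e-07. Other settings gave smaller folds, with a log2 fold of -0.75 without pool 5 (adjusted p = 0.19) and -0.53 without pools 4 and 5 (adjusted p = 0.47).

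Inhbb encodes the beta B chain of activin B. It had 5.47, 19.0, 4.73, 3.63 and 3.07 CPM in CD90- libraries and 21.3, 19.4, 7.81, 13.3 and 23.6 CPM in CD90+ libraries. In pool 2 the 2 fractions were nearly equal, and in the other 4 pools the CD90- library was lower. Averages were 7.18 ± 6.68 CPM in CD90- and 17.1 ± 6.43 CPM in CD90+ cells (SD, n = 5), and Inhbb fell by 1.49 on the log2 scale (SE 0.41, adjusted p = 0.0421). This call lay close to the threshold and was lost without pool 1, 4 or 5 (adjusted p of 0.165, 0.125 and 0.0845), without pools 4 and 5 (0.266), in limma-voom (0.0754), without the block (0.169) and with the mitochondrial covariate (0.766). The log2 fold ran from -1.90 to -0.93 over all settings.

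**Figure D2:**
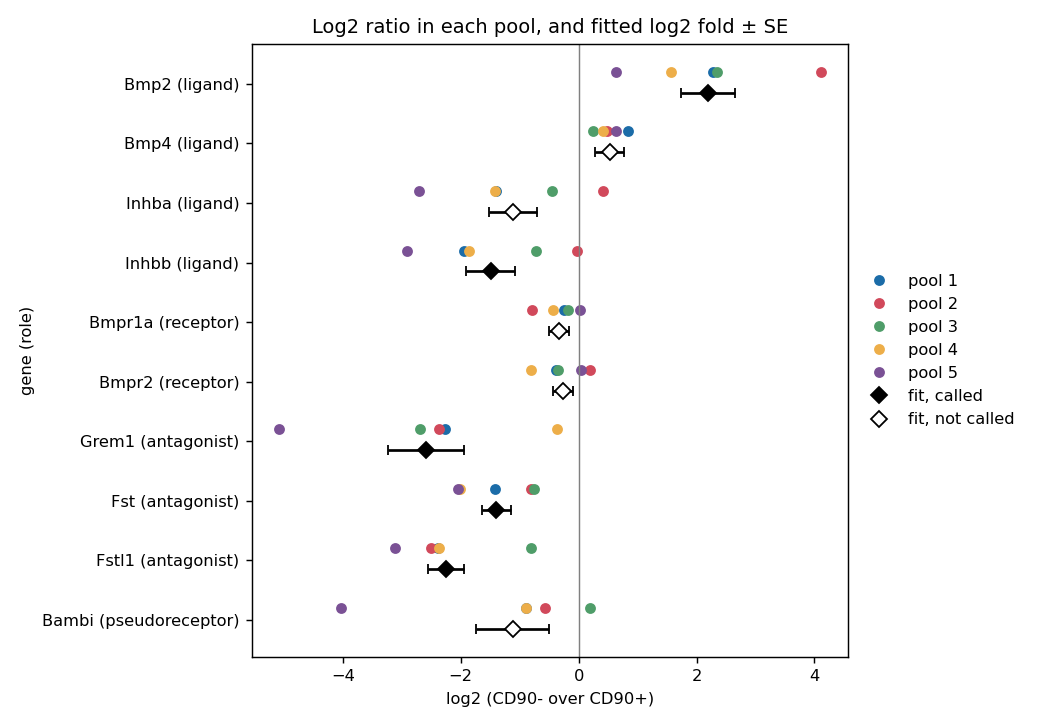
Log2 ratio of CD90- over CD90+ for each gene in pools 1 to 5 (coloured points) and the fitted log2 fold with its SE (diamonds, filled where the adjusted p is under 0.05). Bmp2 lies right of 0, at 2.19, and Grem1 lies farthest left, at -2.59, with a spread from -5.08 to -0.36 over pools.

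The secreted antagonists were lower in CD90- cells of every pool. Grem1 encodes gremlin 1, a BMP antagonist known from intestinal and tumour stroma. It had 2.27, 1.71, 0.198, 4.81 and 0.406 CPM in CD90- libraries and 11.2, 9.07, 1.61, 6.20 and 15.8 CPM in CD90+ libraries. The groups overlapped because the CD90+ library of pool 3 was low, lying under 3 of the CD90- values, while the CD90- library was lower within every pool. Grem1 fell 6.04-fold (log2 fold -2.59, SE 0.65, adjusted p = 0.0278), which was the largest fitted change of the 10 genes. It was a sparse transcript, with 10 to 66 estimated counts per CD90- library and 107 to 366 per CD90+ library. The call was lost without pool 1, 2 or 3 (adjusted p of 0.104, 0.0791 and 0.0639), without the block (0.117) and with the mitochondrial covariate (0.751), where the log2 fold was -7.08.

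Fst encodes follistatin, which binds activins with high affinity and some BMPs more weakly. It had 10.6, 15, 29.3, 6.84 and 4.21 CPM in CD90- libraries and 28.6, 26.2, 49.3, 27.7 and 17.7 CPM in CD90+ libraries. Pool 3 was the highest and pool 5 the lowest in both groups, and the groups overlapped through pool 3, while the CD90- library was lower in every pool. Fst averaged 13.2 ± 9.89 CPM in CD90- and 29.9 ± 11.7 CPM in CD90+ cells (SD, n = 5) and fell 2.63-fold (log2 fold -1.40, SE 0.25, adjusted p = 0.00717). Without the block the adjusted p was 0.158, without pools 4 and 5 it was 0.067, and with the mitochondrial covariate 0.787.

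Fstl1 encodes a secreted follistatin-like glycoprotein of mesenchymal cells that in mouse has been described to bind and restrain BMP4. It had 158, 146, 484, 157 and 67.1 CPM in CD90- libraries and 828, 834, 848, 809 and 584 CPM in CD90+ libraries. All CD90- values lay below all CD90+ values, with the pool 3 CD90- library closest to the other group. Averages were 203 ± 162 CPM in CD90- and 780.5 ± 111 CPM in CD90+ cells (SD, n = 5), a 4.77-fold fall (log2 fold -2.25, SE 0.31, adjusted p = 0.00399). Of the 17 other settings run, 16 kept the call, and the mitochondrial covariate ended it (adjusted p = 0.751) at a log2 fold of -2.18. In the same libraries the fibroblast markers had a median log2 ratio of -2.20, -2.83, -0.64, -1.73 and -3.41 in pools 1 to 5, and Fstl1 had -2.39, -2.51, -0.81, -2.36 and -3.12.

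Bambi encodes a pseudoreceptor that lacks the kinase domain and dampens BMP, activin and TGF-beta signalling at the membrane. It had 2.07, 4.66, 7.74, 1.82 and 0.259 CPM in CD90- libraries and 3.91, 6.94, 6.79, 3.44 and 5.21 CPM in CD90+ libraries. The groups overlapped, and the widest gap was in pool 5, where the CD90- library held 7 counts. Its log2 fold of -1.12 (SE 0.62, adjusted p = 0.295) did not pass.

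Both receptor genes showed small differences that did not pass. Bmpr1a, a type I receptor for BMP2 and BMP4, had 32.6, 23.2, 48.4, 23.1 and 28.8 CPM in CD90- libraries and 38.9, 40.3, 55.1, 31.3 and 28.4 CPM in CD90+ libraries. The groups overlapped, and 4 of 5 pools were lower in CD90- (log2 fold -0.33, SE 0.17, adjusted p = 0.24). Bmpr2, the type II BMP receptor, had 87.1, 125, 106, 61.9 and 81.4 CPM in CD90- libraries and 114, 110.1, 135, 108 and 79.3 CPM in CD90+ libraries. It was lower in 3 of 5 pools (log2 fold -0.26, SE 0.17, adjusted p = 0.359). With the mitochondrial covariate both signs turned, to 0.12 (SE 0.52) for Bmpr1a and 0.45 (SE 0.48) for Bmpr2. Neither was called, and each fold was smaller than its SE.

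**Figure D3:**
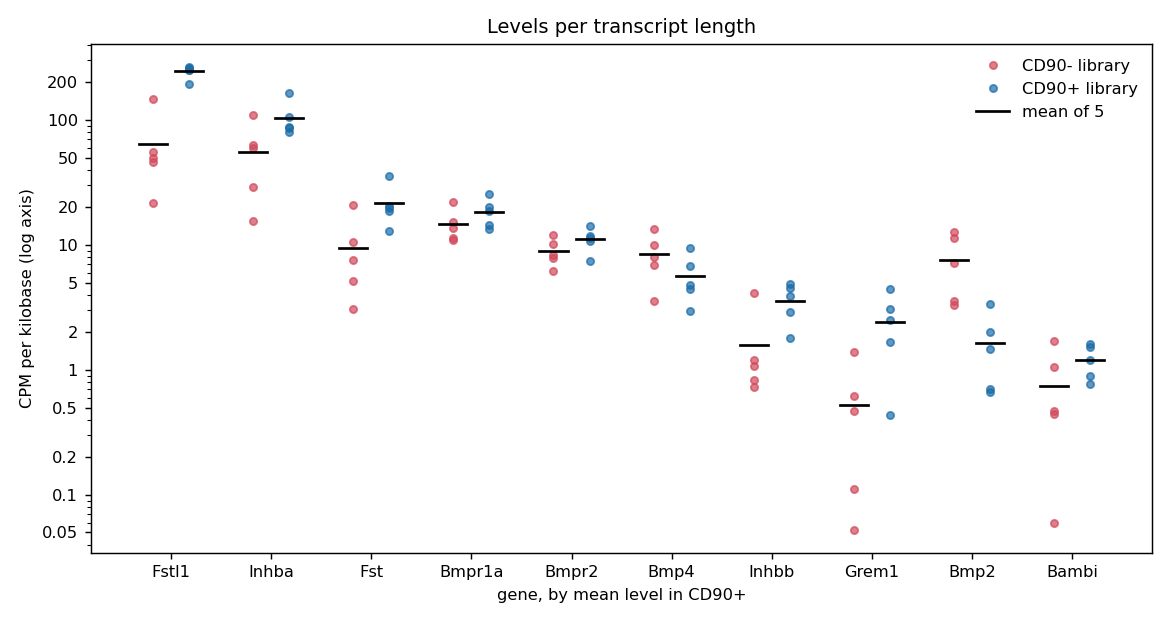
Level per transcript length (CPM per kilobase, log axis) of the 10 genes in CD90- (left points, red) and CD90+ (right points, blue) libraries, with black lines for the means of 5. Fstl1 and Inhba lead in both groups, and Bmp2 is the seventh of 10 in CD90- and the ninth in CD90+ cells.

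Levels could be compared between genes as CPM per kilobase of effective transcript length. Fstl1 was highest, at 64.0 ± 48.3 in CD90- and 245 ± 28.6 CPM per kilobase in CD90+ cells, followed by Inhba at 55.6 ± 36.6 in CD90- and 105 ± 34.3 in CD90+ cells (SD, n = 5). In CD90+ libraries the ranges of Fstl1 and Inhba, and of Inhba and Fst, did not overlap, whereas every later pair of neighbours overlapped. In CD90- libraries every pair of neighbours in the order overlapped, and Fstl1 exceeded Inhba in 3 of 5 pools. Bmp4 averaged 8.43 ± 3.69 in CD90- and 5.67 ± 2.52 CPM per kilobase in CD90+ cells, and Bmp2 7.63 ± 4.34 in CD90- and 1.64 ± 1.12 in CD90+ cells (SD, n = 5). Inhbb and Bambi were low, at 1.60 ± 1.43 and 0.748 ± 0.646 in CD90- and 3.58 ± 1.24 and 1.20 ± 0.374 CPM per kilobase in CD90+ cells. Grem1 was lowest in CD90- cells, at 0.528 ± 0.540, against 2.42 ± 1.5 CPM per kilobase in CD90+ cells (SD, n = 5).

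Ratios within a library do not depend on how that library was scaled. Per kilobase, Grem1 over the sum of Bmp2 and Bmp4 was 0.0404, 0.0177, 0.0076, 0.0652 and 0.0106 in CD90- libraries of pools 1 to 5, and 0.521, 0.247, 0.12, 0.164 and 0.655 in CD90+ libraries. The groups did not overlap, and CD90- was lower in 5 of 5 pools. Inhba over Bmp2 was 4.03, 8.63, 18.0, 5.6 and 4.37 in CD90- and 54.8, 124, 130.02, 48.3 and 52.8 in CD90+ libraries, so that activin A transcripts outnumbered Bmp2 transcripts per length in all 10 libraries and by less in CD90- cells. Fst over Inhba was 0.262, 0.0959, 0.348, 0.0815 and 0.197 in CD90- and 0.256, 0.215, 0.414, 0.121 and 0.123 in CD90+ libraries. Here the groups overlapped, and the ratio was lower in 3 and higher in 2 pools. These ratios were chosen after the values were seen and were not tested.

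**Figure D4:**
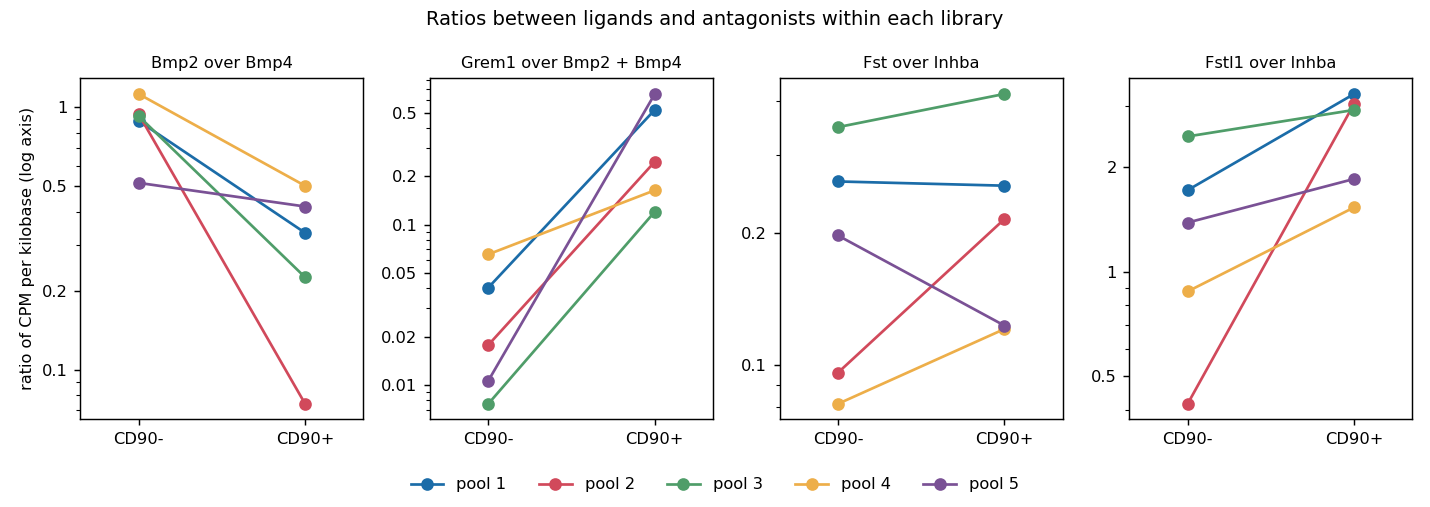
Ratios of CPM per kilobase within each library on a log axis, CD90- left and CD90+ right, with 1 line per pool. Bmp2 over Bmp4 is higher and Grem1 over Bmp2 plus Bmp4 lower in CD90- of all 5 pools, while Fst over Inhba goes both ways.

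Transcript estimates showed which annotated isoforms carried the reads. Bmp2, Inhbb, Grem1 and Bambi had 1 matched transcript each, and transcripts without a match are not counted here. Fstl1, Bmpr2 and Bmp4 each had a leading transcript that held 99.7%, 98.3% and 96.7% of the gene's estimated counts over all libraries. Inhba was divided between Inhba-201 and Inhba-202, both protein-coding. The share of Inhba-201 was 66.9%, 80.3%, 91.0%, 62.0% and 58.9% in CD90- libraries and 68.1%, 73.4%, 76.1%, 67.6% and 66.7% in CD90+ libraries. Its mean was close in the groups (71.8% ± 13.5 in CD90- and 70.4% ± 4.15 in CD90+; SD, n = 5), and CD90- libraries spread more widely. Fst was divided over 6 transcripts, led by Fst-201 and Fst-202 with 41.0% and 33.7% of all counts. The share of Fst-201 ran from 17.3% to 89.5% in CD90- and from 32.8% to 66.1% in CD90+ libraries. Of the 4 transcripts of Bmpr1a, Bmpr1a-201 held 71.9% ± 12.5 in CD90- and 58.3% ± 20.03 in CD90+ libraries (SD, n = 5).

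Other genes of the pathway were read from the same fit, from a list of 64 genes grouped by role, of which 49 were tested. Of these 49, 2 rose and 16 fell in CD90- cells, beside the 5.83% and 7.05% of all genes, and 31 did not pass. Their median log2 fold was -0.73. The count that fell was 5 without pool 1, 10 without pool 4, 9 without pool 5, 2 without pools 4 and 5 (Gdf11 and Gdf10), 6 without the block and 0 with the mitochondrial covariate. The count that rose was 4 under upper-quartile normalization (974 of all genes rose), over protein-coding genes (1014), in DESeq2 (1623) and in limma-voom (1144). In the main fit 896 of all genes rose.

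Of 17 further ligand genes, 9 were tested, and 1 rose and 3 fell. Bmp8b was the one that rose, at 11.7, 5.26, 4.40, 6.19 and 3.51 CPM in CD90- libraries and 0.373, 0.719, 0.106, 0.246 and 0.0982 CPM in CD90+ libraries, with no overlap (log2 fold 4.52, SE 0.61, adjusted p = 0.00305). Bmp8a and Bmp8b are close paralogs whose reads Salmon divides, so their separate values are uncertain, and the Bmp8a log2 fold was -0.62 (adjusted p = 0.794). Gdf11, a ligand of activin receptors, fell by 1.88 on the log2 scale (SE 0.30, adjusted p = 0.00504), at 3.44 ± 1.24 CPM in CD90- and 12.5 ± 3.87 CPM in CD90+ cells (SD, n = 5). Gdf10, a divergent BMP family ligand, was lower at a log2 fold of -2.30 (SE 0.40, adjusted p = 0.00662), as was the BMP ligand gene Gdf6 at -1.96 (SE 0.54, adjusted p = 0.0481). Gdf10 was lost without pool 1 (adjusted p = 0.0579), and Gdf6 without pool 1, 2 or 4 (0.148, 0.134 and 0.0687) and without the block (0.307). Gdf5, Gdf7, Mstn, Inhbc and Nodal had 0 counts in all 10 libraries.

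Of 15 further antagonist genes, 11 were tested, and 0 rose and 4 fell. The activin-binding follistatin relative Fstl3 had 10.8, 14.9, 27.0, 13.5 and 7.79 CPM in CD90- libraries and 27.8, 51.9, 38.4, 35.5 and 25.9 CPM in CD90+ libraries (log2 fold -1.36, SE 0.22, adjusted p = 0.00531). Only the CD90- library of pool 3 reached into the CD90+ range. The BMP-binding protein gene Bmper fell by 1.91 (SE 0.31, adjusted p = 0.00572) and the DAN family gene Nbl1 by 0.69 on the log2 scale (SE 0.15, adjusted p = 0.0173). Chrd, Twsg1 and Nog, which encode chordin, its cofactor twisted gastrulation and noggin, had log2 folds of -1.66, -0.50 and -1.28 and did not pass (adjusted p of 0.0655, 0.0513 and 0.71). They are named after their values were seen. Nbl1 was lost without pool 1 (adjusted p = 0.0854) and without the block (0.0598), and Bmper without the block (0.136).

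Of 12 further receptor and co-receptor genes, 10 were tested, and 0 rose and 4 fell. These were the betaglycan gene Tgfbr3 (log2 fold -1.61, SE 0.39, adjusted p = 0.0327), the type I receptor genes Acvrl1 (-1.39, SE 0.37, adjusted p = 0.0365) and Acvr1 (-0.60, SE 0.16, adjusted p = 0.0388), and the BMP co-receptor gene Rgma (-1.73, SE 0.49, adjusted p = 0.0447). Acvr1 averaged 27.2 ± 5.13 CPM in CD90- and 40.6 ± 2.01 CPM in CD90+ cells (SD, n = 5), without overlap. All 4 calls were lost without pool 1, without pool 5 and without the block, and 3 of them each without pool 2 (Acvrl1 stayed) and without pool 4 (Tgfbr3 stayed). Acvrl1 and Rgma were also lost in limma-voom (adjusted p of 0.0727 and 0.116). The type II activin receptor genes Acvr2a (-0.15) and Acvr2b (0.52) did not pass (adjusted p of 0.844 and 0.617; named after their values were seen).

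Most SMAD genes did not pass the test, and their log2 folds lay on both sides of 0. Of 12 SMAD and regulator genes, with a median log2 fold of 0.01, all were tested, 0 rose and 1 fell. That gene was Smad6, an inhibitory SMAD that acts mainly on BMP signalling, at 14.0 ± 3.32 CPM in CD90- and 23.0 ± 4.89 CPM in CD90+ cells (SD, n = 5; log2 fold -0.73, SE 0.19, adjusted p = 0.0334). Its call was lost without any pool but pool 3. The BMP-responsive Smad1 and Smad5 had log2 folds of -0.40 and -0.01 (adjusted p of 0.18 and 0.979). Smad9, which also transmits BMP signals, had the largest fitted fold of the 12, at -4.61 (SE 1.57, adjusted p = 0.0853), and did not pass. It was sparse, with 2, 0, 28, 0 and 0 counts in CD90- libraries and 40, 68, 63, 7 and 7 counts in CD90+ libraries, lower in 5 of 5 pools. Smad2, Smad3 and Smad4 leaned higher, at log2 folds of 0.81, 0.45 and 0.38, and did not pass. All genes of this paragraph except Smad6 are named after their values were seen.

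Genes known as targets of BMP signalling went in both directions. Of 8, 7 were tested, and 1 rose and 4 fell. The ID proteins are inhibitors of basic helix-loop-helix factors that BMPs induce in many cells. Id2 had 25.2, 36.0, 17.7, 29.9 and 19.0 CPM in CD90- libraries and 8.62, 11.7, 6.42, 20.01 and 7.96 CPM in CD90+ libraries, and was higher in 5 of 5 pools (log2 fold 1.3, SE 0.22, adjusted p = 0.00584). Id3 had 9.05, 12.7, 38.6, 19.3 and 5.25 CPM in CD90- libraries and 47.3, 56.4, 53.2, 53.3 and 37.2 CPM in CD90+ libraries, and was lower in 5 of 5 (log2 fold -1.86, SE 0.33, adjusted p = 0.00809). Atoh8 and Msx1, transcription factor genes, fell by 1.94 (SE 0.39, adjusted p = 0.0117) and 2.31 (SE 0.61, adjusted p = 0.0358) on the log2 scale, and Id4, the other one that fell, by 1.91 (SE 0.51, adjusted p = 0.0368). Id3 was lost without the block (adjusted p = 0.0582) and without pools 4 and 5 (0.0808), and Atoh8 without pool 1 (0.0688) and without pools 4 and 5 (0.127). Msx1 was lost without pool 1, 3, 4 or 5 (adjusted p of 0.174, 0.0562, 0.115 and 0.07), without the block (0.0901) and in limma-voom (0.0552). The target Id1 had a log2 fold of 0.26 (adjusted p = 0.437; named, like Id4, after its values were seen).

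**Figure D5:**
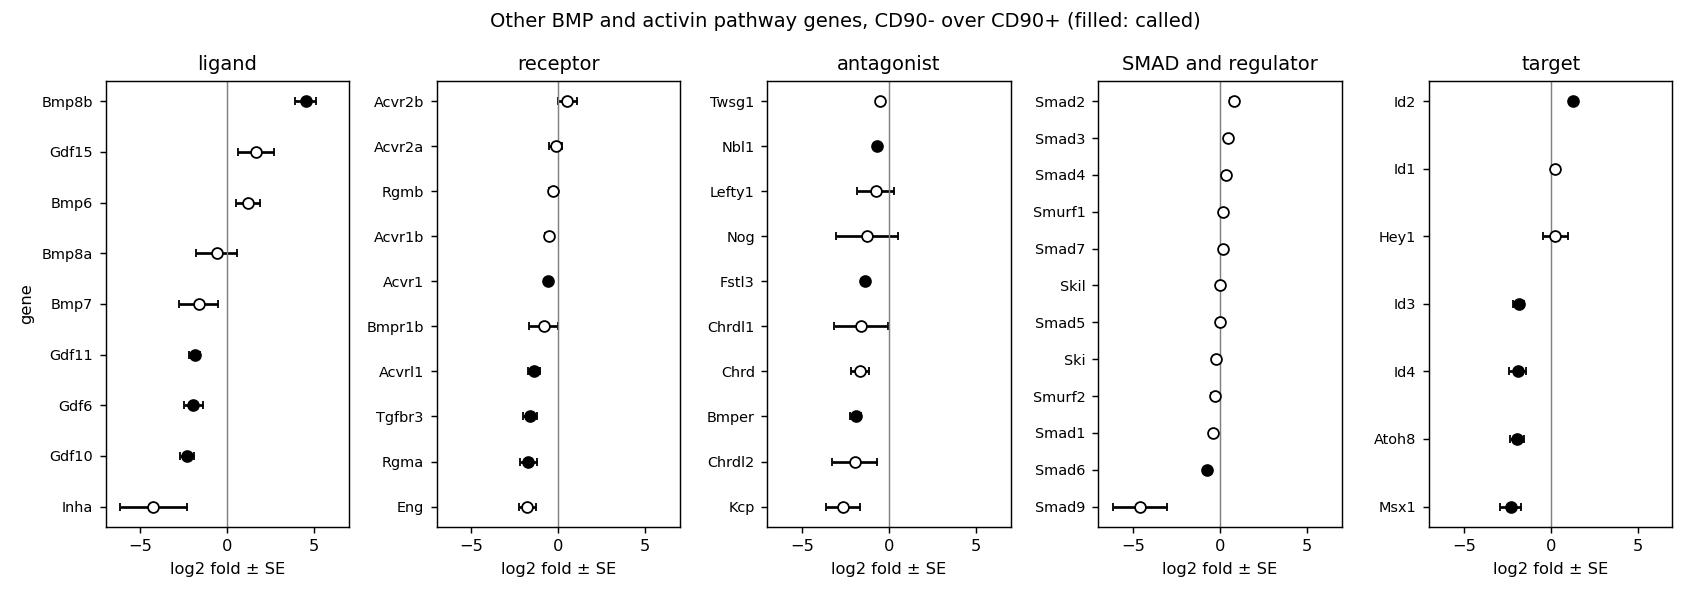
Fitted log2 folds (CD90- over CD90+) with SE for other pathway genes tested, by role, filled where the adjusted p is under 0.05. Filled antagonists and receptors lie left of 0, Bmp8b and Id2 lie right, and SMAD genes lie on both sides of 0, with only Smad6 filled.

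Each of the 10 genes was also set beside the 6851 protein-coding genes whose log2 CPM averaged 3 or more, by the Pearson correlation of log2 CPM over the 10 libraries, which share the fractions, pools and depth differences described above. Fstl1 was most like Bgn and Bmp1 (r of 0.996 for both); Bgn encodes the matrix proteoglycan biglycan, and Bmp1 a procollagen proteinase that is no BMP ligand. Fst was most like Medag (0.987) and Il6st (0.981), and Inhbb like Dchs1 (0.99) and the endoglin gene Eng (0.966). Bmp2 was most like Arap3 (0.969) and Rbp4 (0.968), the plasma retinol carrier, both of which were higher in CD90- cells. Grem1 was most like Hmg20b (0.954) and Ccdc102a (0.943), Inhba like Selenow (0.956) and Nfkbia (0.919), and Bambi like Cryab (0.957) and Pde3a (0.955). For Bmp4 the nearest were Fam117b (0.921) and Rgl3 (0.918), for Bmpr1a Bicd1 (0.944) and Ccnd3 (0.935), and for Bmpr2 Emsy (0.945) and Stau1 (0.933). Among the 10 genes themselves, Fst and Fstl1 were most alike (0.912), and Bmp2 and Bmpr1a least (-0.769).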

How the data were processed

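RNA of flow-sorted cells was amplified with a SMART-Seq stranded kit from low input, per the labels' protocols. No molecular identifiers are mentioned there, so reads are not independent molecules, and libraries of low RNA yield had more cDNA PCR cycles, with yields not given per library. The authors deposited estimated counts, effective lengths and TPM per transcript, made with Salmon 1.9.0 on builds GRCm39 and mm39 per the submitters' processing notes. Neither the annotation release nor a strand setting is stated there, so reads of antisense partners may be mixed in. The deposited TPM only weighted a gene's transcripts for its length.

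Transcripts were matched without version to GENCODE M21 (GRCm38), used for names only. Of 144584 transcripts, 133666 (92.4%) matched. The others held 3.63% to 12.1% of a library's counts and were left out, so a transcript of a studied gene that did not match is missing. Estimated counts were summed per gene, rounded, and entered edgeR 4.0.16 (R 4.3.3) with filterByExpr, TMM, robust glmQLFit and glmQLFTest and the tumour pool as a block, with Benjamini-Hochberg adjustment over all genes tested and a threshold of 0.05. CPM use the TMM-scaled library, log2 CPM a prior count of 2. TMM factors ran from 0.204 in the CD90- library of pool 4 to 1.95 in the CD90+ library of pool 3. Levels in CPM, and the direction of a gene within a pool, rest on this scaling. CPM per kilobase divide by the effective length. The block rests on the shared animals. The correlation between the deviations of a pool's 2 fractions from the mean of each group was 0.06, 0, 0.46, 0.03 and 0.19 in pools 1 to 5. Libraries of a group differed beyond counting noise (chi-square per degree of freedom of at least 39.2). The pipeline was tested on simulated data. Alternatives used DESeq2 1.42.0, limma-voom (limma 3.58.1), other scaling and filters, a length offset, a mitochondrial rRNA covariate and left-out pools.

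The 10 genes and all lists were chosen with earlier results of these data known. The rule named all 10 genes, Thy1, in each role of the pathway list up to 4 called genes with the smallest p, and the 2 genes most like each of the 10. A result on 1 pathway gene is not reported here, and counts over the list include it.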

Additional observations from a re-analysis of the deposited data

Results flagged for a closer look

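For the 10 genes and the 17 pathway genes chosen by the rule, 54 groups of 5 libraries were examined. In 7 of them 1 library stood far from the other 4. The cutoff flags about 1 in 20 groups of independent, normally distributed values. CPM need not be so distributed, and the groups share the same 10 libraries, so that rate is no measure of chance here. Inhbb was at 19.0 CPM in the CD90- library of pool 2, against 3.07 to 5.47 CPM in the other CD90- libraries. Fstl1 was at 484 CPM in the CD90- library of pool 3, against 67.1 to 158 CPM in the other CD90- libraries. In the CD90+ library of pool 5 Fstl1 was at 584 CPM, against 809 to 848 CPM in the other CD90+ libraries. Bmper and Acvr1 were at 43.6 and 36.0 CPM in the CD90- library of pool 3, against at most 9.02 and 27.1 CPM in the other CD90- libraries. Msx1 was at 4.56 CPM in the CD90- library of pool 2, against at most 1.31 CPM in the others, and Gdf10 at 31.2 CPM in the CD90+ library of pool 1, against at most 11.9 CPM in the other CD90+ libraries.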

How the results depend on the processing

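Without the block for the pool, 965 genes, 2 of the 10 genes (1 lower) and 8 pathway genes (6 lower) were called. DESeq2 called 3432 genes. With the mitochondrial covariate edgeR called 0 genes (882 had an unadjusted p under 0.05), and so 0 of the 10 and 0 pathway genes. The log2 folds of Bmpr1a and Bmpr2 turned to 0.12 and 0.45, each smaller than its SE. The mitochondrial rRNA share was higher in the CD90- library of every pool, so this fit cannot separate it well from the group. Without pools 4 and 5 the counts were 541, 3 (2 lower) and 4 (2 lower). Leaving out each pool gave 675 to 2019 genes, 2 to 5 of the 10 (0 to 1 higher, 2 to 4 lower) and 7 to 18 pathway genes (2 to 3 higher, 5 to 15 lower). Pathway genes called higher were 4 under upper-quartile normalization, in DESeq2, in limma-voom and over protein-coding genes. The cause of these shifts was not tested, and fits that leave pools out also hold fewer libraries. Of the 167 log2 folds of the 10 genes under other settings, 144 kept their direction and their side of the threshold, 18 lost the call, 3 gained it and 2 reversed. Bmp4, Grem1 and Bambi gave no value at a mean log2 CPM of at least 3. Grem1, Bambi, Bmp8b and Msx1 rest on few counts in some libraries.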

Other observations

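Some pathway genes leaned one way without passing the test, and are named here after their values were seen. Smad3, which transmits activin and TGF-beta signals, had 90.8, 134, 87.5, 112 and 98.7 CPM in CD90- libraries and 71.4, 87.6, 62.8, 73.0 and 86.0 CPM in CD90+ libraries, higher in 5 of 5 pools (log2 fold 0.45, SE 0.13, adjusted p = 0.0534 in edgeR). Smad2, its close relative, was higher in 4 of 5 pools, at a log2 fold of 0.81 (SE 0.25, adjusted p = 0.062). Kcp, which encodes a chordin-like BMP modulator, had 1.96, 0, 3.17, 2.14 and 0.739 CPM in CD90- libraries and 6.34, 5.97, 3.86, 9.85 and 9.14 CPM in CD90+ libraries, without overlap (log2 fold -2.65, SE 0.99, adjusted p = 0.123). Id1 was higher in 5 of 5 pools, at 21.1 ± 2.94 CPM in CD90- and 17.6 ± 1.99 CPM in CD90+ cells (SD, n = 5).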
